A study of Homo sapiens with 12 samples.

Results

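The 10 genes described here are MYC, its partner MAX, the MAX-binding repressor MXD1, and 7 regulators of the G1 phase of the cell cycle. The regulators are the D-type cyclins CCND1, CCND2 and CCND3, the kinases CDK4 and CDK6, and the kinase inhibitors CDKN1A and CDKN1B. They were picked by gene symbol from a deposited table of 25528 rows, and all 10 were found. RNA-seq gave their levels in 4 groups of 3 libraries, 12 in all, from HT-29 cells. HT-29 is an established line grown from a human colon adenocarcinoma, and its own APC gene is mutant. One arm received lentivirus with an open reading frame, either GFP as the control or CTNNB1 (beta-catenin), and RNA was taken at day 2 of infection. The other arm received a lentiviral short hairpin, either the control shNT1 or a hairpin against APC (shAPC), and RNA was taken at day 1 of induction with 2 µM doxycycline. Every group thus shares the mutant APC background, and both hairpin groups share the doxycycline. Vector, time and doxycycline differ between the arms and cannot be told apart from any difference between GFP and shNT1 or between CTNNB1 and shAPC libraries. The comparisons ask how stronger WNT signalling changes these transcripts. The labels do not say whether the libraries of a group came from separate cultures, so p-values measure only the spread between these libraries, which may be technical.

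MYC binds DNA as a heterodimer with MAX at E-box sequences and activates genes of growth and metabolism, while MXD proteins compete for MAX at the same sequences and repress. D-type cyclins bind and activate CDK4 and CDK6, which phosphorylate the retinoblastoma protein and so release E2F factors that switch on S-phase genes. CDKN1A and CDKN1B bind cyclin and kinase complexes and restrain CDK2 in particular. In colorectal cancer MYC and CCND1 are widely described as targets of beta-catenin and its TCF/LEF partners, and loss of APC in the intestine is known to raise MYC.

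The 2 kinases are shown by sequence first, because 1 rose in both arms and the other passed no test although both partner the same cyclins. Promoter windows of 300 bases, 250 before and 50 after a start site, came from RefSeq on GRCh38.p14, where 7 of the 10 genes had an entry. Motifs of 3 factors were searched on both strands: the E-box CACGTG bound by MYC and MAX, the TCF/LEF motif CTTTGAT, and the E2F motifs TTTCGCGC and TTTGGCGC. The E-box was present in 7.26% of 35116 such windows, the TCF/LEF motif in 2.62% and an E2F motif in 1.15%. CDK4 (chr12:57752261-57752560, minus strand) held 3 E-boxes, which begin 216, 196 and 101 bases before the start site. The first listed start site of CDK6 (chr7:92836524-92836823, minus strand) held 1, beginning 30 bases after it. Neither window held a TCF/LEF or E2F motif by these letters. Both sequences run 5′ to 3′ on the strand of the gene, with the E-boxes in capitals.
CDK4: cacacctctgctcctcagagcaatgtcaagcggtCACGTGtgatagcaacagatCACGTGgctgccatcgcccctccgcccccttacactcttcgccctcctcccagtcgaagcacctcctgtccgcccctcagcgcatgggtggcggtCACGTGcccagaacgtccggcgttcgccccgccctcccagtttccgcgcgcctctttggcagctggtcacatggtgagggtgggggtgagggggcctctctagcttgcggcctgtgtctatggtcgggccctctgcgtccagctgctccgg
CDK6: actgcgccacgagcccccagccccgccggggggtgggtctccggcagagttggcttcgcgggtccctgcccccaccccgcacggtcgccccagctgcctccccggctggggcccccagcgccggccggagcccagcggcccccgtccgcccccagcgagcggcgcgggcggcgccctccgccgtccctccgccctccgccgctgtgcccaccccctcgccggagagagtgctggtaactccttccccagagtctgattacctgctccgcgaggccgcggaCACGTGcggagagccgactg
A second listed start site of CDK6 (chr7:92833910-92834209, minus strand, not printed) held none of these motifs, so the E-box match depends on which start site is read. The other windows found, of MAX, MXD1, CCND3, CDKN1A and CDKN1B, held none of them either. A match is a string of letters, and no binding was measured here.

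Genes were tested with limma on log2(TPM + 1), where TPM is the transcript level per length, put on a common total for all libraries. Calls were made at an adjusted p (Benjamini-Hochberg) under 0.05, with the adjustment running over every gene whose TPM averaged 1 or more in the arm. In the CTNNB1 arm 3 of the 9 testable members were called, all higher (CCND1, CDK6 and CDKN1B), where 23.5% of 11624 genes were called, 16.3% higher and 7.16% lower. In the shAPC arm 5 of 9 were called, with the same 3 genes higher and MYC and CCND3 lower, where 22.1% of 11834 genes were called, 7.24% higher and 14.9% lower. Perturbed and control libraries did not overlap for 6 members in each arm, 3 higher and 3 lower. Over all genes tested that share was 43.2% in the CTNNB1 arm (30.2% higher and 13% lower) and 40.9% in the shAPC arm (14.5% higher and 26.4% lower). With no filter on low genes the limma calls of CDK6 in both arms (adjusted p = 0.06 and 0.15), of CDKN1B with CTNNB1 (0.063) and of MYC with shAPC (0.18) were lost. The size of the log2 fold change, regardless of sign, had a median of 0.16 over the members and 0.12 over all genes in the CTNNB1 arm, and 0.2 over the members and 0.13 over all genes in the shAPC arm.

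**Figure D1:**
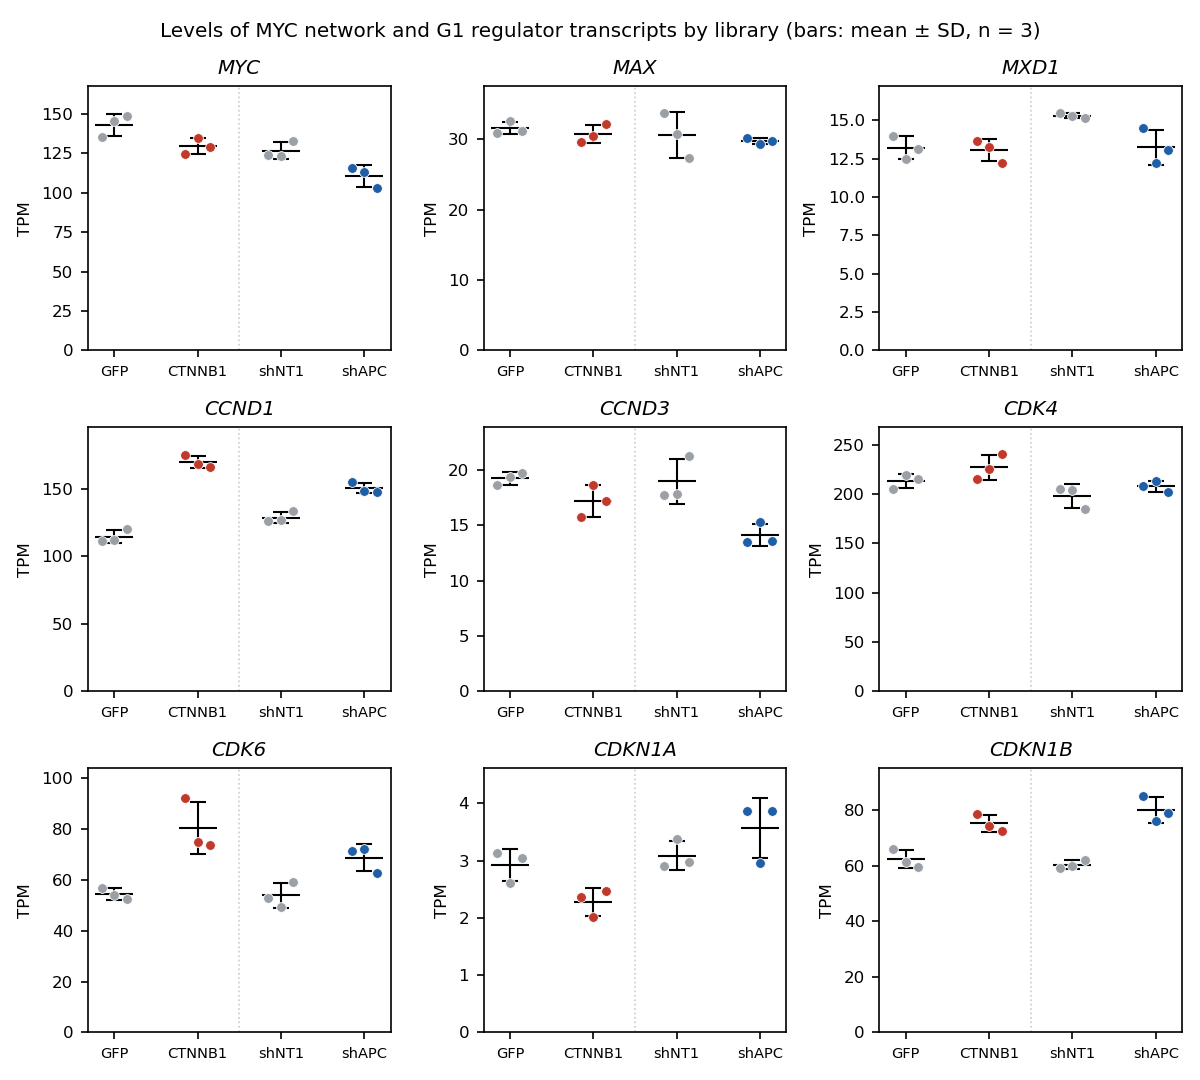
Level of each testable gene in TPM (vertical axis, from 0) in the 4 groups (horizontal axis). Points are single libraries and bars are the mean ± SD of 3, and the dotted line parts the arms. CCND1, CDK6 and CDKN1B lie higher in CTNNB1 than in GFP and higher in shAPC than in shNT1 with no overlap.

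Perturbation of the targeted genes was checked in the same libraries. APC went from 16.4 ± 0.8 TPM with the control hairpin to 5.99 ± 0.56 TPM with shAPC (SD, n = 3 each, limma adjusted p = 6.1e-06). The CTNNB1 transcript itself went from 146 ± 2.9 TPM with GFP to 160 ± 4.2 TPM with its open reading frame, which was not called (limma adjusted p = 0.059). A reference list of 9 WNT target genes was measured beside it, of which 8 were testable. NKD1 and NOTUM were under 1 TPM in both control groups and reached the level for testing only through the perturbed groups, so they could only be called higher. Of the other 6, 5 rose in the CTNNB1 arm and 6 in the shAPC arm, where 16.3% and 7.24% of all genes were higher. The median log2 fold changes of these 6 were 0.86 and 0.95. This list was chosen with results of these data known, and is no independent evidence. Of 10 markers of colon epithelium 8 averaged 1 TPM or more, the keratins among them. CDX1 and CDX2, intestinal transcription factors, stayed under 1 TPM in every group mean. The epithelial sum was higher in the CTNNB1 libraries (12800 to 12890 TPM) than in GFP (11580 to 11730 TPM), and overlapped between shAPC (9211 to 10180 TPM) and shNT1 (9683 to 11330 TPM). KRT8 and KRT18 made up most of that sum, and other markers of the list went the other way with CTNNB1, LGALS4 from 748 to 522 TPM and KRT19 from 591 to 509.6 TPM. Both were also lower with shAPC, LGALS4 going from 951 to 623 TPM and KRT19 from 452 to 337 TPM. The part of these markers in the results was not tested. Fibroblast markers summed to at most 0.695 TPM and endothelial markers to at most 0.478 TPM in any library. Of 5 leukocyte markers CD3E was listed at 0 and PTPRC reached at most 0.0125 TPM in a group mean. LYZ, which secretory gut cells also make, took nearly all of the leukocyte sum, which was 6493 to 6580 TPM in GFP, 6796 to 7730 in CTNNB1, 6800 to 7098 in shNT1 and 7287 to 8027 in shAPC, and its part was not tested either. CD68, the other leukocyte marker above 1 TPM, went the opposite way, from 27.0 to 13.2 TPM with CTNNB1 and from 13.8 to 7.52 TPM with shAPC. The number of genes above 0 per library ran from 14756 (shNT1 replicate 3) to 16186.

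MYC was among the more abundant transcripts, at the percentile 89.2 of all genes that averaged 1 TPM or more. The GFP libraries held 135.1, 145 and 149 TPM of MYC and the CTNNB1 libraries 125, 134.8 and 129 TPM. Every CTNNB1 library lay below every GFP library, though the nearest pair almost touched. The mean went from 143 ± 7.1 to 130 ± 5.1 TPM (SD, n = 3 each) and the log2 fold change of -0.14 (SE 0.05) was not called (limma adjusted p = 0.08). Median-ratio scaling gave a call for MYC here, at -0.22 (limma adjusted p = 0.027). In the hairpin arm MYC stood at 124, 123 and 133 TPM in shNT1 and at 116, 113 and 103 TPM in shAPC, again without overlap. MYC fell there by 0.19 on the log2 scale (SE 0.06, limma adjusted p = 0.041). The fall of MYC missed the limma threshold in 5 of the 6 fits that left out a library, all but that without shAPC replicate 1 (adjusted p from 0.064 to 0.15). MYC was likewise not called under quantile normalization (-0.1, limma adjusted p = 0.14) or with no variance trend (limma adjusted p = 0.084). Every setting tried gave a log2 fold change of MYC below 0 in both arms.

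MAX, the obligate partner of MYC, ran from 27.3 to 33.8 TPM over the 12 libraries. The ratio of its highest to its lowest group mean, 1.06, was smaller than that of each of the other 8 testable members. The log2 fold change of MAX was -0.04 (SE 0.06, limma adjusted p = 0.66) in the CTNNB1 arm and -0.03 (SE 0.08, limma adjusted p = 0.78) in the shAPC arm. The sign in the shAPC arm turned under median-ratio scaling and quantile normalization. MXD1, which competes with MYC for MAX, held 14, 12.5 and 13.2 TPM in GFP and 13.7, 13.3 and 12.2 TPM in CTNNB1, with overlapping groups. Its levels were 15.5, 15.3 and 15.1 TPM in shNT1 and 14.5, 12.2 and 13.04 TPM in shAPC, where the groups did not overlap. The log2 fold change of MXD1 in the shAPC arm was -0.2 (SE 0.07) and was not called (limma adjusted p = 0.078), apart from the fit without shAPC replicate 1 (-0.26, limma adjusted p = 0.034). The ratio of MXD1 to MYC TPM was 0.0927 ± 0.0096 in GFP and 0.101 ± 0.0077 in CTNNB1 (SD, n = 3 each, two-sided exact permutation p = 0.3). It was 0.121 ± 0.0063 in shNT1 and 0.12 ± 0.01 in shAPC (two-sided exact permutation p = 0.9). With 3 libraries against 3 the smallest p this test can give is 0.1.

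Other genes of the MYC and MAX network were read from a list of 10, of which 8 were testable in each arm. In the CTNNB1 arm 3 rose and 1 fell, where 16.3% of all genes were called higher and 7.16% lower. The median log2 fold change there was 0.18 beside 0.06 over all genes. In the shAPC arm 2 rose and 1 fell, where 7.24% of all genes were higher and 14.9% lower, with a median of 0.02 beside -0.04. MYCL, a MYC paralog, rose in both arms, going from 2.1 ± 0.18 to 3.52 ± 0.1 TPM (0.55 on the log2 scale) and from 2.63 ± 0.3 to 3.65 ± 0.21 TPM (0.36). MYCN was listed at 0 in every group. Of the MXD family, repressors that pair with MAX, MXI1 rose in the CTNNB1 arm (0.27) and MXD4 in the shAPC arm (0.38). MLX, a relative of MAX, fell in the CTNNB1 arm (-0.26). MLXIP, a glucose-sensing partner of MLX, rose in the CTNNB1 arm from 35.3 to 40.7 TPM (0.2) and fell in the shAPC arm from 37.1 to 28.1 TPM (-0.39).

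A list of 18 textbook genes induced by MYC held 17 testable genes. None was called in the CTNNB1 arm by limma, where 16.3% of all genes were called higher and 7.16% lower. The median of the 17 there was -0.03 beside 0.06 over all genes. At an unadjusted p under 0.05, 3 of them were higher and 0 lower. In that arm median-ratio scaling called 1 gene lower and quantile normalization 1 higher. Over all 11624 genes they called 1461 lower and 1345 higher respectively. In the shAPC arm limma called 4 lower and 0 higher (10 lower and 1 higher at an unadjusted p under 0.05), with a median of -0.14 beside a median of -0.04 over all genes and 14.9% of all genes lower. Both of the other scalings added 1 rise, where 1264 (median-ratio) and 1338 (quantile) of 11834 genes were higher. The falls were those of BOP1 and NOP56, which act in ribosome assembly, PPAT of purine synthesis, and LDHA, lactate dehydrogenase. LDHA fell from 1349 ± 32 to 1069 ± 10 TPM (SD, n = 3 each, -0.34 on the log2 scale) and BOP1 by 0.35. Of 7 genes that MYC is described to repress, CDKN1C passed the level for testing only through the perturbed groups and is left out of the count. Of the other 6, 1 rose and 2 fell in each arm. The shares of all genes called higher and lower were 16.3% and 7.16% with CTNNB1, and 7.24% and 14.9% with shAPC. The medians of the 6 were -0.11 with CTNNB1 and 0.06 with shAPC, beside 0.06 and -0.04 over all genes. CDKN2B and CEBPA fell in both, GADD45B rose in the CTNNB1 arm (0.69) and GADD45A in the shAPC arm (0.26).

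Among the D-type cyclins CCND1 was the most abundant and the only one that rose. CCND1 libraries held 111, 112 and 120.2 TPM in GFP and 175, 169 and 167 TPM in CTNNB1. The CTNNB1 libraries all lay far above the GFP libraries, and the mean rose from 115 ± 4.9 to 170.0 ± 4.4 TPM (SD, n = 3 each), or 1.48-fold. The log2 fold change of CCND1 with CTNNB1 was 0.57 (SE 0.05, limma adjusted p = 5.8e-05). In the hairpin arm the levels were 126, 127 and 134 TPM in shNT1 and 155, 149 and 148 TPM in shAPC. The groups were again apart, with a smaller gap: the mean rose from 129 ± 4.2 to 151 ± 3.8 TPM, or 1.17-fold (0.22 on the log2 scale, SE 0.05, limma adjusted p = 0.01). This call was lost without shNT1 replicate 1 (0.21, limma adjusted p = 0.051). The rise of CCND1 with CTNNB1 exceeded that with shAPC by 0.34 (SE 0.07, limma adjusted p = 0.0039), and by 0.23 and 0.27 under median-ratio scaling and quantile normalization, where it was also called.

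CCND3 moved the other way. Its levels were 18.65, 19.3 and 19.8 TPM in GFP and 15.7, 18.63 and 17.2 TPM in CTNNB1, groups that touch without overlapping. The log2 fold change of CCND3 there was -0.16 (SE 0.07) and was not called (limma adjusted p = 0.14). In shNT1 the libraries held 17.7, 17.9 and 21.3 TPM and in shAPC 13.5, 15.3 and 13.6 TPM. CCND3 fell in that arm from 19.0 ± 2 to 14.1 ± 0.99 TPM (SD, n = 3 each), by 0.4 on the log2 scale (SE 0.08, limma adjusted p = 0.0087), a call that was lost with no filter on low genes (limma adjusted p = 0.11). CCND2 was listed at 0 TPM in 10 of 12 libraries. The exceptions were CTNNB1 replicate 2 with 0.00983 TPM and shNT1 replicate 1 with 0.0117 TPM, so it did not reach the level for testing and no fold is given.

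The share of CCND1 in the summed TPM of the 3 D-type cyclins describes their balance. It was 85.6% ± 0.29 in GFP and 90.8% ± 0.86 in CTNNB1 (SD, n = 3 each), with every CTNNB1 library above every GFP library (two-sided exact permutation p = 0.1). In the hairpin arm it was 87.2% ± 0.81 in shNT1 and 91.4% ± 0.66 in shAPC, likewise apart (two-sided exact permutation p = 0.1). Both p-values are the smallest that this design allows. The summed D-type cyclin level itself was 134 ± 5.4 TPM in GFP, 187 ± 3.5 in CTNNB1, 148 ± 6.2 in shNT1 and 165 ± 3.4 in shAPC.

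CDK6 rose in both arms and CDK4 was called in neither. CDK6 levels were 56.9, 54.2 and 52.4 TPM in GFP and 92.5, 75.1 and 73.8 TPM in CTNNB1, with CTNNB1 replicate 1 highest of all libraries. The mean rose from 54.5 ± 2.3 to 80.5 ± 10.4 TPM (SD, n = 3 each), 1.48-fold, with a log2 fold change of 0.55 (SE 0.08, limma adjusted p = 0.0014). In the hairpin arm CDK6 held 52.9, 49.5 and 59.3 TPM in shNT1 and 71.5, 72.4 and 62.6 TPM in shAPC. The groups did not overlap, shAPC replicate 3 lying just above shNT1 replicate 3, and the mean rose from 53.9 ± 5 to 68.8 ± 5.4 TPM, 1.28-fold (0.35 on the log2 scale, SE 0.08, limma adjusted p = 0.012). This call was lost without shAPC replicate 1 (0.32, limma adjusted p = 0.055) and without shAPC replicate 2 (0.31, limma adjusted p = 0.052). The rise of CDK6 did not differ detectably between the arms (difference 0.2, SE 0.12, limma adjusted p = 0.29).

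CDK4 was the most abundant member, at 205.5, 219 and 215.4 TPM in GFP and 215.5, 225 and 241 TPM in CTNNB1. The groups overlapped, with a log2 difference of 0.09 (SE 0.05, limma adjusted p = 0.24). It stood at 205.5, 204 and 184 TPM in shNT1 and 208, 214 and 202 TPM in shAPC, also overlapping, with a log2 fold change of 0.07 (SE 0.06, limma adjusted p = 0.41). The exons of CDK4 overlap those of TSPAN31 on the opposite strand over 43.2% of their bases in GENCODE release 29, and the labels do not say that counting used strand, so reads of the pair may not be separable. For CCND1 the like overlap, with LTO1, covers 10.3%. CDK6 made up 19.6% to 21.7% of the summed CDK4 and CDK6 TPM in GFP and 23.5% to 30.0% in CTNNB1. In shNT1 it was 19.5% to 24.3% and in shAPC 23.6% to 25.6%, and these overlapped. This share was chosen after the levels had been seen and was not tested.

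**Figure D2:**
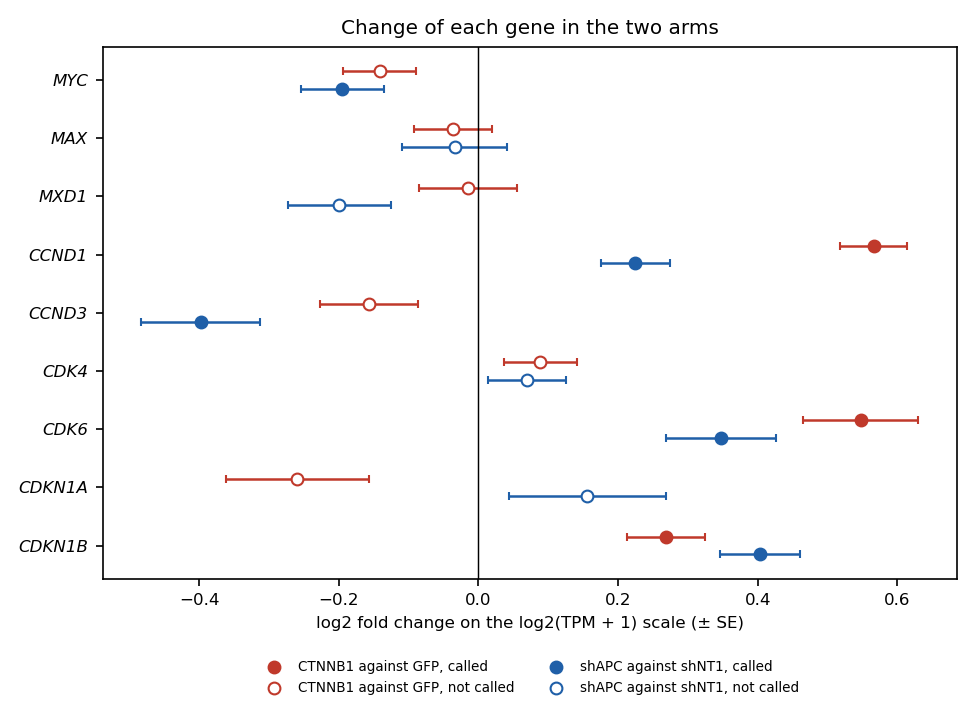
Log2 fold change of each testable gene (horizontal axis, log2(TPM + 1) scale, bars ± SE) for CTNNB1 against GFP (red) and shAPC against shNT1 (blue). Filled points passed the limma threshold; CCND1, CDK6 and CDKN1B are filled and above 0 in both arms, while CDKN1A lies on opposite sides of 0 and is filled in neither.

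The kinase inhibitors CDKN1A and CDKN1B differed in level. CDKN1B was called in both arms and CDKN1A in neither, and their responses were not tested against each other. CDKN1B libraries held 65.9, 61.4 and 59.5 TPM in GFP and 78.6, 74.4 and 72.5 TPM in CTNNB1. All CTNNB1 libraries lay above all GFP libraries, and the mean rose from 62.3 ± 3.3 to 75.2 ± 3.1 TPM (SD, n = 3 each), 1.21-fold (0.27 on the log2 scale, SE 0.06, limma adjusted p = 0.0083). In shNT1 the levels were 59.0, 59.7 and 62.1 TPM and in shAPC 85.2, 76.0 and 79.2 TPM. CDKN1B rose there from 60.3 ± 1.6 to 80.1 ± 4.7 TPM, 1.33-fold (0.4 on the log2 scale, SE 0.06, limma adjusted p = 0.0011), the largest rise among the members in this arm. The difference between the arms was -0.13 (SE 0.08) and was not called (limma adjusted p = 0.26). Median-ratio scaling made it -0.25 (limma adjusted p = 0.029) and -0.26 under quantile normalization (limma adjusted p = 0.03), with the larger rise in shAPC.

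CDKN1A was scarce, at the percentile 12 of all genes that averaged 1 TPM or more. It held 3.13, 2.61 and 3.05 TPM in GFP and 2.36, 2.01 and 2.48 TPM in CTNNB1, every CTNNB1 library being lower. The log2 fold change of -0.26 (SE 0.1) was not called (limma adjusted p = 0.095), and it was called under median-ratio scaling (-0.31, limma adjusted p = 0.047) and quantile normalization (-0.38, limma adjusted p = 0.028). In shNT1 it held 2.91, 3.37 and 2.97 TPM and in shAPC 3.87, 2.96 and 3.87 TPM, with overlap through shAPC replicate 2. The log2 fold change of CDKN1A was 0.16 (SE 0.11, limma adjusted p = 0.35) in that arm. The difference between the arms was -0.42 (SE 0.15, limma adjusted p = 0.073) and was called under both other scalings (-0.5 each, limma adjusted p = 0.042 and 0.039) and without shAPC replicate 2 (-0.52, limma adjusted p = 0.039).

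The summed TPM of both inhibitors was 0.488 ± 0.042 of the summed D-type cyclin TPM in GFP and 0.414 ± 0.0096 in CTNNB1 (SD, n = 3 each). It was 0.429 ± 0.0082 in shNT1 and 0.508 ± 0.024 in shAPC. The ratio was thus lower in every CTNNB1 library than in any GFP library, and higher in every shAPC library than in any shNT1 library. Each comparison gave the smallest possible two-sided exact permutation p of 0.1. CDKN1B made up nearly all of the numerator. These are transcript levels, and protein was not measured.

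**Figure D3:**
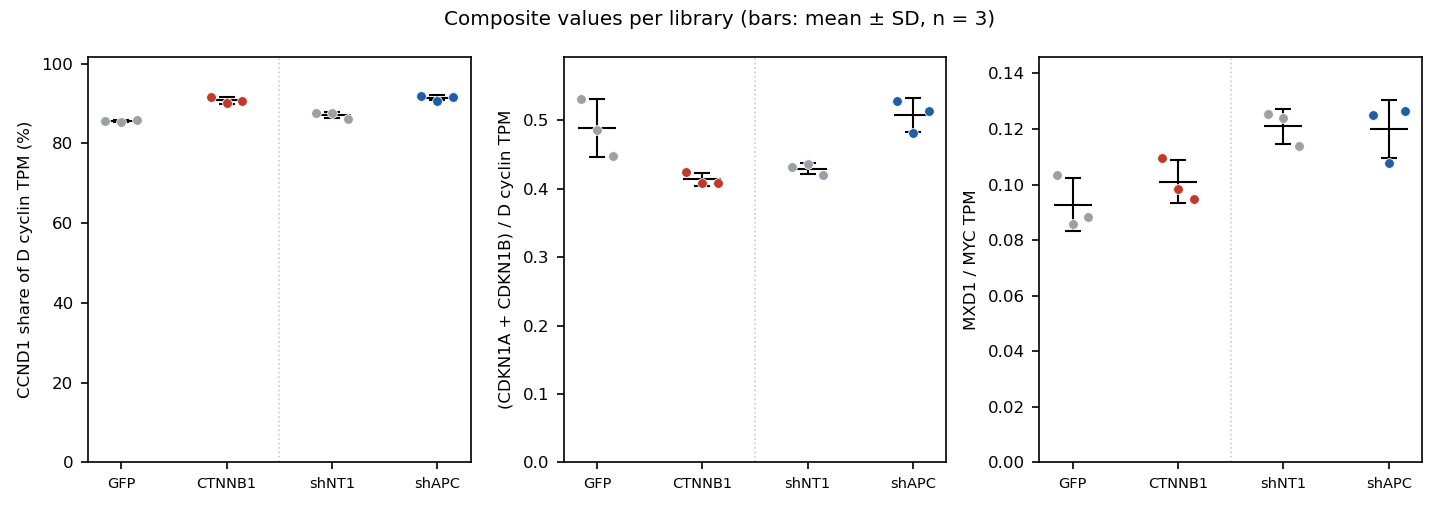
Composite values per library (points) with the mean ± SD of 3 (bars) in the 4 groups: the CCND1 share of D-type cyclin TPM in percent, the ratio of summed CDKN1A and CDKN1B to summed D-type cyclin TPM, and the ratio of MXD1 to MYC TPM. The CCND1 share is higher in both perturbed groups, the inhibitor ratio is lower in CTNNB1 (0.414 against 0.488) and higher in shAPC (0.508 against 0.429), and the MXD1 ratio overlaps in both arms.

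Of 5 other CDK inhibitors 4 were at or above 1 TPM in every group, and 1 of these, CDKN2B, fell in each arm. The share of all genes called lower was 7.16% with CTNNB1 and 14.9% with shAPC. CDKN1C, a relative of CDKN1B, was under 1 TPM in both control groups and testable only through the perturbed groups, so only a rise could be called. Its levels went from 0.682 ± 0.19 to 1.74 ± 0.3 TPM (0.7 on the log2 scale) and from 0.985 ± 0.066 to 3.17 ± 0.1 TPM (1.07). CDKN2B, an inhibitor of CDK4 and CDK6, fell from 7.42 ± 0.21 to 5.86 ± 0.22 TPM (-0.3) and from 9.41 ± 0.73 to 6.14 ± 0.34 TPM (-0.54). CDKN2A, of the same locus, was not called in either (-0.28 and -0.14).

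CDKN1A is a textbook target of p53, a factor that is mutant in HT-29, so 17 other p53 targets were read beside it. TP53INP1 was under 1 TPM in GFP and testable in the CTNNB1 arm only through the CTNNB1 group. Of the other 16 limma called 6 higher and 0 lower in that arm, with 0 lower also at an unadjusted p under 0.05, where 16.3% of all genes were higher and 7.16% lower. Their median was 0.08, beside 0.06 over all genes. In the shAPC arm 6 of 17 rose and 4 fell, where 7.24% of all genes were higher and 14.9% lower, and the median was 0.05 beside -0.04. SESN1, a stress-induced inhibitor of growth signalling, went up with CTNNB1 from 9.79 ± 0.48 to 22.2 ± 4.1 TPM (1.09 on the log2 scale), and with shAPC from 12.5 ± 1.1 to 27.1 ± 1.8 TPM (1.058). TP53INP1 went from 0.844 to 2.61 TPM with CTNNB1, and rose with shAPC from 1.92 to 5.13 TPM (1.08). FAS (-0.4) and PLK3 (-0.38) fell in the shAPC arm. MDM2, a defining p53 target, was called in neither (-0.07 and -0.01).

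Genes that act after the D-type cyclins were read next. The list of other G1/S machinery held 23 genes, all testable. In the CTNNB1 arm limma called 4 higher and 0 lower (9 and 1 at an unadjusted p under 0.05, median 0.1 beside 0.06 over all genes), and 2 higher and 1 lower under median-ratio scaling. The count of 4 in 23 is near the 16.3% of all genes called higher. Median-ratio scaling called 1254 of 11624 genes higher and 1461 lower. In the shAPC arm 1 rose and 7 fell (median -0.12 beside -0.04), where 7.24% of all genes were higher and 14.9% lower. CDC25A, the phosphatase that activates CDK2, held 32.9 ± 0.74 TPM in GFP and 32.7 ± 1.3 TPM in CTNNB1, and fell from 28.2 ± 1.3 to 17.04 ± 0.31 TPM in the shAPC arm (-0.7, limma adjusted p = 5e-05). RBL1, a retinoblastoma family member, fell there by 0.41, and its value of 0.16 with CTNNB1 was not called. TFDP2, a dimer partner of E2F factors, rose in both (0.47 and 0.31), and E2F2 rose in the CTNNB1 arm (0.45).

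Of 18 S-phase genes that E2F factors are described to activate, limma called 4 higher and 0 lower in the CTNNB1 arm (7 and 1 at an unadjusted p under 0.05, median 0.1 beside 0.06 over all genes), and 1 higher and 1 lower under median-ratio scaling. The count of 4 in 18 is again not far from the 16.3% of all genes. Under median-ratio scaling 1254 of 11624 genes were higher and 1461 lower. In the shAPC arm it called 0 higher and 7 lower (0 and 12 at an unadjusted p under 0.05, median -0.18 beside -0.04 over all genes), where 14.9% of all genes were lower. MCM2, a subunit of the replicative helicase, rose in the CTNNB1 arm (0.19) and fell in the shAPC arm (-0.19). RRM2, a subunit of ribonucleotide reductase, fell from 258 ± 10 to 191 ± 5.7 TPM in the shAPC arm (-0.43) and held 315 ± 5.7 and 307 ± 11 TPM in GFP and CTNNB1. TK1, a thymidine kinase of nucleotide synthesis, rose in the CTNNB1 arm (0.21), and MCM4 fell in the shAPC arm (-0.29). Without shNT1 replicate 3, the library with the fewest genes above 0, the falls in the shAPC arm numbered 4, as they did under quantile normalization. Over all genes 1399 of 11854 fell without that library and 1368 of 11834 under quantile normalization.

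The effect in the CTNNB1 arm minus that in the shAPC arm was tested in 1 fit of all 12 libraries. Among the members only CCND1 was called, where 16.1% of 11741 genes were, 13.3% higher and 2.76% lower. Of the E2F targets 12 of 18 were called and of the other G1/S genes 12 of 23, all with the larger value in the CTNNB1 arm, the direction of most calls over all genes. Their medians were 0.28 and 0.27, beside 0.11 over all genes. Median-ratio scaling moved the median over all genes to 0.0039 and left medians of 0.17 and 0.16. It called 4 of the E2F targets and 8 of the other G1/S genes, still in that direction. Over all genes it called 1436 of 11741, 786 higher and 650 lower. Without shNT1 replicate 3 the counts were 8 and 10, where 1307 of 11745 genes were called, 1024 higher and 283 lower. KRT20, a marker of colonocyte differentiation singled out after its values were seen, fell in the shAPC arm (106 ± 5.1 to 69.3 ± 5.2 TPM). It held 139 ± 1.9 and 138 ± 5.7 TPM in GFP and CTNNB1. Other epithelial markers did not share this pattern: LGALS4 and KRT19 were lower in both arms, and KRT18 held 3990 ± 456 and 4119 ± 196 TPM in shNT1 and shAPC. The part of KRT20 in these results was not tested.

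**Figure D4:**
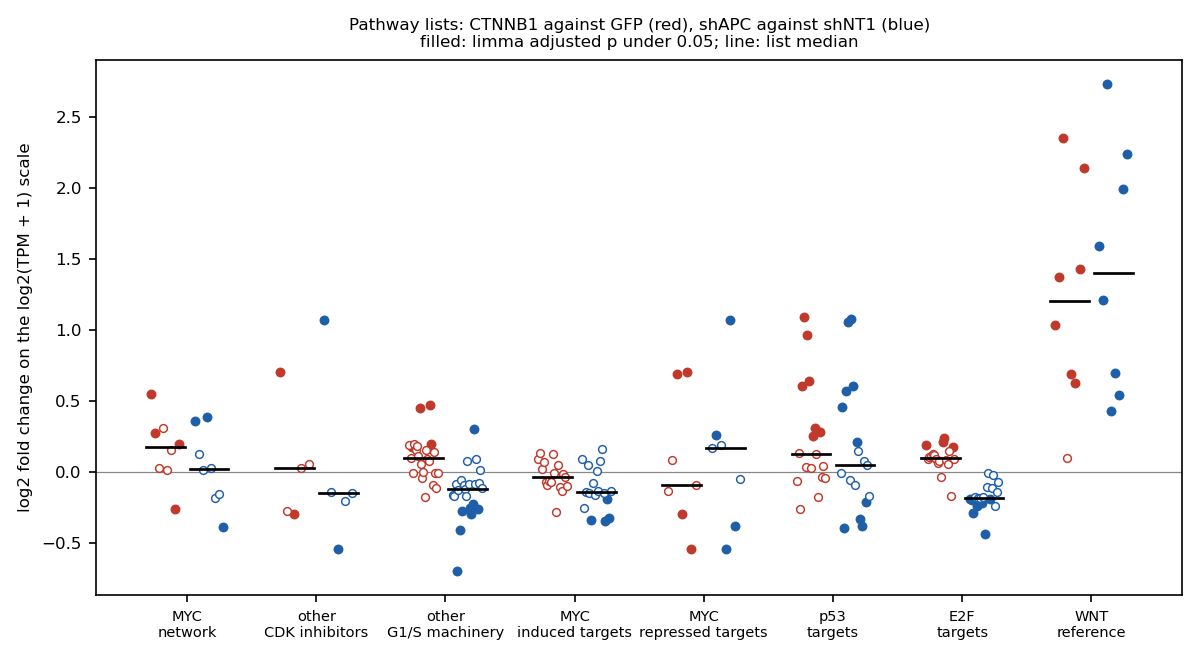
Log2 fold changes (vertical axis, log2(TPM + 1) scale) of the testable genes of 8 lists (horizontal axis) for CTNNB1 against GFP (red) and shAPC against shNT1 (blue). Each point is a gene, filled when limma called it, and black lines are list medians, which include the genes testable only through a perturbed group (CDKN1C, NKD1, NOTUM and, in the CTNNB1 arm, TP53INP1); E2F targets have medians of 0.1 (red) and -0.18 (blue).

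The 4 group means of each gene were put in order without a test, since arms differ in more than the perturbation. CCND1 ran CTNNB1, shAPC, shNT1, GFP, and no neighbouring groups overlapped. CDK6 ran CTNNB1, shAPC, GFP, shNT1, with overlap only between the controls. CDKN1B ran shAPC, CTNNB1, GFP, shNT1, with overlap between the perturbed groups and between the controls. MYC ran GFP, CTNNB1, shNT1, shAPC, where CTNNB1 and shNT1 overlapped. For CCND3 the order was GFP, shNT1, CTNNB1, shAPC, and only shAPC was clear of its neighbour. CDKN1A ran shAPC, shNT1, GFP, CTNNB1, and only CTNNB1 was clear. In CDK4 and MAX all neighbours overlapped, and in MXD1 only shNT1 stood clear, above the rest.

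Genes with the most similar profile over the 12 libraries were taken by the root mean square difference of centred log2(TPM + 1), among 9438 genes that averaged 5 TPM or more. Those nearest MYC were RPS6KA1 (0.0347), P4HB (0.035) and AUP1 (0.0403), where MYC itself varied by 0.143 about its mean. P4HB went from 827 to 757 TPM in the open reading frame arm and from 747 to 647 TPM in the hairpin arm. Nearest CCND1 were FOXRED2 (0.0469), ABLIM1 (0.0509) and USP6NL (0.0574), against its own 0.219. Nearest CDKN1A were PCGF1 (0.0892), LPIN1 (0.0988) and TAF1D (0.114), against 0.198.

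The authors' deposited table for CTNNB1 gave log2 fold changes of 0.5 for CCND1 (adjusted p = 0.00066), 0.48 for CDK6 (0.015) and 0.2 for CDKN1B (0.044), and called no other member. In the authors' deposited table for APC the same 5 members passed as here: CDKN1B (0.45, adjusted p = 0.0016), CDK6 (0.39, 0.025), CCND1 (0.27, 0.00084), CCND3 (-0.39, 0.047) and MYC (-0.16, 0.042). For CDKN1A the authors' deposited table for CTNNB1 gave -0.45 with an adjusted p of 0.056. By RefSeq on GRCh38.p14 MYC (ENSG00000136997) lies on chromosome 8 at 127735434 to 127742951, CCND1 (ENSG00000110092) on chromosome 11 at 69641156 to 69654474 and CDK6 (ENSG00000105810) on chromosome 7 at 92604921 to 92836573. CDKN1B (ENSG00000111276) lies on chromosome 12 at 12717368 to 12722369, CDKN1A (ENSG00000124762) on chromosome 6 at 36676463 to 36687332 and CCND3 (ENSG00000112576) on chromosome 6 at 41934933 to 42050035. All are protein-coding, and reads were assigned to whole genes, so no exon is singled out.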

How the data were processed

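RNA-seq of 12 HT-29 libraries was used. The authors deposited TPM per gene and library, and per the submitters' processing notes STAR 2.7.3a, limma and hg38 were used. The quantification tool, annotation and strand are not given in the sources used here. The authors' deposited limma tables give log2 fold changes and, per the file headers, p-values and adjusted p-values. Their moderated t and log-odds score columns, per the file headers, were not used. TPM holds no read number. Sequencing depth is therefore unknown, and it limits the precision of low values such as CDKN1A by an unknown amount.

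The log2(TPM + 1) values of each arm, a scale that understates changes of low genes, were fitted separately by limma 3.58.1 (R 4.3.3) with a mean-variance trend. Genes averaging under 1 TPM were left out. In a simulation with 200 changed genes, 1.2-fold changes were recovered for 1% of them in each arm and 0% for the difference. At 1.5-fold the recovery was 73.5% (CTNNB1 arm), 78% (shAPC arm) and 27.5% (difference). At 2-fold it was 99%, 100% and 94%. An assumed dispersion of 0.01 and 2.5e+07 reads were used, and the true values are unknown. A small change that was not called is therefore not shown to be absent. Members, gene lists and tests were chosen with earlier results of these data known. Every member is named, and from each list in each arm at most 2 called risers and 2 called fallers, by size, plus those called in opposite directions. A gene that this rule names is not reported here. NOP56, PPAT, MDM2, CDKN2A, MYCN and NOTUM were named outside this rule after their values were seen. So were the markers KRT20, KRT8, KRT18, KRT19, LGALS4, CDX1, CDX2, LYZ, CD3E, PTPRC and CD68. Composite values were compared with exact permutation tests. Alternatives changed the pseudocount (0.1), filter (none or 5), scaling, variance trend, groups fitted and replicate block, and left out each library. List counts under scaling, block and without shNT1 replicate 3 were added after seeing the data.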

Additional observations from a re-analysis of the deposited data

Results flagged for a closer look

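The single-gene values here are effects that differed between the arms by the test of the difference itself (CTNNB1 effect minus shAPC effect, log2). CCND1 differed by 0.34 (SE 0.07, limma adjusted p = 0.0039), rising in both arms and by more in the CTNNB1 arm. Among the named genes of the lists the difference was 0.69 for CDC25A, 0.59 for MLXIP, 0.56 for RBL1, 0.54 for E2F2, 0.499 for GADD45B, 0.398 for RRM2, 0.39 for MCM4, 0.38 for MCM2, 0.32 for TK1 and 0.25 for LDHA. Their limma adjusted p-values ran from 8.9e-05 (CDC25A) to 0.022 (GADD45B), and the median difference of all genes was 0.11. Of all genes 16.1% were called for the difference, and other named genes were not. These genes were named by large or opposite called changes in the same libraries. That choice favours a large difference, so their p-values are no independent evidence.

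The ratio of summed CDKN1A and CDKN1B TPM to summed D-type cyclin TPM moved in opposite directions, by -0.0747 in the CTNNB1 arm and by 0.0785 in the shAPC arm, with no overlap in either. The difference between the arms in this ratio was not tested. Groups of 3 are too small to look for a single deviating library.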

How the results depend on the processing

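Without a filter fewer genes were called (1366 in the CTNNB1 arm, 998 in the shAPC arm, 987 for the difference). The members called were then 1 in the CTNNB1 arm (CCND1) and 2 in the shAPC arm (CCND1 and CDKN1B), with CDK6 lost in both, CDKN1B lost with CTNNB1, and CCND3 and MYC lost with shAPC. Median-ratio scaling called 5 members in the CTNNB1 arm (MYC and CDKN1A added) and 3 for the difference (CDKN1A and CDKN1B added), as did quantile normalization for the difference (3). The share of higher calls was 69.5%, 32.8% and 82.8% in the CTNNB1 arm, the shAPC arm and the difference. It was 46.2%, 44.3% and 54.7% under median-ratio scaling, and 53%, 49.4% and 56.9% under quantile normalization. Signs turned only where nothing was called: MAX in the shAPC arm (0.0073 under median-ratio scaling, 0.032 under quantile normalization), and for the difference MYC (-0.059 and -0.042) and CDK4 (-0.094 and -0.025). The cause was not tested.

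Leaving out 1 library gave 1499 to 3190 calls in the CTNNB1 arm, 1484 to 2252 in the shAPC arm and 995 to 2143 for the difference. The members called numbered 3 in every such fit of the CTNNB1 arm, 3 to 5 in the shAPC arm and 1 to 2 for the difference. Ranges that crossed 0 were those of MXD1 in the CTNNB1 arm (-0.052 to 0.028), MAX in the shAPC arm (-0.11 to 0.037), and for the difference MAX (-0.074 to 0.074) and CDK4 (-0.023 to 0.069).

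Replicate numbers are shared by the groups, but the labels do not say what they mean. Deviations of same-numbered libraries correlated by 0.21, 0.076 and 0.12 in the CTNNB1 arm and by -0.14, 0.0025 and -0.21 in the shAPC arm, and 5 of 6 and 1 of 6 libraries correlated best with their own number. The replicate block called 2895 genes in the CTNNB1 arm, 1767 in the shAPC arm and 1145 for the difference. Among members it added MYC in the CTNNB1 arm (-0.14, limma adjusted p = 0.049) and dropped MYC in the shAPC arm (-0.19, limma adjusted p = 0.097). TPM gives no depth, so what depth limits could not be measured.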
